A study of Homo sapiens with 6 samples.

Results

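Glycolysis and pyruvate handling were followed through 32 genes, of 60640 gene identifiers in the tables, in RNA-seq of MOLT-4, a widely used cell line of human T-cell leukemia of the acute lymphoblastic kind (T-ALL). The members were taken by gene symbol. They cover carriers of glucose and lactate, every cytosolic step from glucose to pyruvate and lactate, and enzymes that set fructose-2,6-bisphosphate. Of the pyruvate dehydrogenase complex and its kinases they hold PDHA1, PDHB, DLAT, PDK1 and PDK3. The study compared 3 wild type libraries (control cells of the CRISPR knockout) with 3 libraries labelled IK-KO, from cells with CRISPR-Cas targeting of IKZF1, which encodes the zinc finger transcription factor IKAROS, to ask what IKAROS does in T-ALL. Both kinds of cells came from a supplier, the edited cells with their control, and were grown in RPMI medium with serum. The study checked the knockout of IKAROS by PCR and western blot, and blotted the protein in more than 1 knockout clone. The labels do not tell which clone was sequenced, nor do they say that replicates were separate cultures, so p-values measure only the spread between these libraries, which may be technical. Any other difference between the cell lines cannot be told apart from the targeting of IKZF1.

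In glycolysis, glucose enters through GLUT carriers, is trapped by hexokinase, is committed by phosphofructokinase and is split into trioses whose oxidation yields ATP, NADH and pyruvate. Pyruvate is then either reduced to lactate, which leaves through monocarboxylate carriers, or oxidised in mitochondria by pyruvate dehydrogenase, which pyruvate dehydrogenase kinases switch off. Leukemic T cells, like activated T cells, are known for high glucose use with lactate release, and transcription factors such as HIF-1 and MYC act on many genes of the pathway.

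IKZF1 RNA was measured first, because it was the targeted gene. IKZF1 (ENSG00000185811.19, chr7:50304068-50405101) stood at 134, 124 and 105 FPKM in wild type replicates 1, 2 and 3. The libraries labelled IK-KO had 207, 259.6 and 207 FPKM. FPKM counts fragments per transcript length in kilobases and per 1000000 fragments mapped. The RNA was thus higher, not lower, where the gene was targeted, with a log2 change of 0.89 (SE 0.12, adjusted p = 0.00295, limma). The tables hold no protein measurement, and the gene-level value does not check the label. CD3E, LCK and NOTCH1, the tested T-ALL markers that were not called, ranged from 38.3 to 425 FPKM over all 6 libraries. They and the other markers but CD7 are named after their values were seen. CD7, the T-ALL marker with the largest change, was at 16.8, 15.2 and 15.4 FPKM in wild type and 3.17, 4.25 and 5.09 FPKM in those labelled IK-KO. Of 10 T-ALL markers, 9 were tested, all but NOTCH3. Of these, 2 rose (CD3G and PTCRA) and 4 fell (CD7, CD5, TAL1 and LMO2). That is 66.7% called against 19.9% of all tested genes (the rule for calls follows). No B cell, myeloid or erythroid marker reached the test, and each of those 3 lists summed to at most 2.19 FPKM in any library. Of the fibroblast and epithelial markers only KRT8, named after its value was seen, was tested, at 0.701 to 1.97 FPKM. The part of the T-ALL marker changes in the values of the glycolysis genes was not tested. In bulk RNA, fewer cells of a type and less RNA per cell cannot be told apart.

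Of the 32 members, 30 passed the filter on low values (a mean of at least 1 FPKM over the 6 libraries). HK3 was listed at 0 in every library, and PFKFB4 had a mean under that limit. A gene was called at an adjusted p under 0.05, by limma on log2(FPKM + 1), with adjustment over all 12652 tested genes. By this rule 11 of the 30 members were called, 36.7%, against 19.9% of all tested genes. Most of the called members fell: 9 had less RNA in the libraries labelled IK-KO (HK1, GPI, PFKFB3, ALDOC, TPI1, PGK1, PGAM1, PKM and LDHA), and of all tested genes 9.75% were called lower. GAPDH and DLAT were called higher, as were 10.1% of all tested genes. The median log2 change was -0.12 over the members and 0.02 over all tested genes, and 21 of the 30 members had a negative change. The 6 libraries split by group without overlap in 20 of the 30 members, and in 39% of all tested genes. Under the 3 other scalings of the libraries 12 to 14 members were called, with PDHB, ENO1 or PFKFB2 gained and PFKFB3 lost under quantile normalisation, and no called member changed sign. Calls over all tested genes also rose under each of these scalings. The count of called members rested on all libraries, as 4 members were called without IK-KO replicate 1, where calls over all genes fell too. Values of single libraries are given in the order of replicates 1, 2 and 3, and means as mean ± SD with n = 3.

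The members span a wide range of levels. The plot of FPKM by library shows GAPDH far above the rest, and 10 members with a mean of at least 100 FPKM. Of these 10, 6 fell (GPI, TPI1, PGK1, PGAM1, PKM and LDHA), GAPDH rose, and ALDOA, ENO1 and LDHB were not called. Of the 1266 most abundant tested genes, from 71.4 FPKM up, 28.5% were called, and 7 of the 12 members there. A log2 change of at least 0.3 in size was seen in 7 of the 30 tested members (SLC16A3, HK1, GPI, PFKFB2, PFKFB3, ALDOC and DLAT), 23.3%, against 30.1% of all tested genes.

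**Figure D1:**
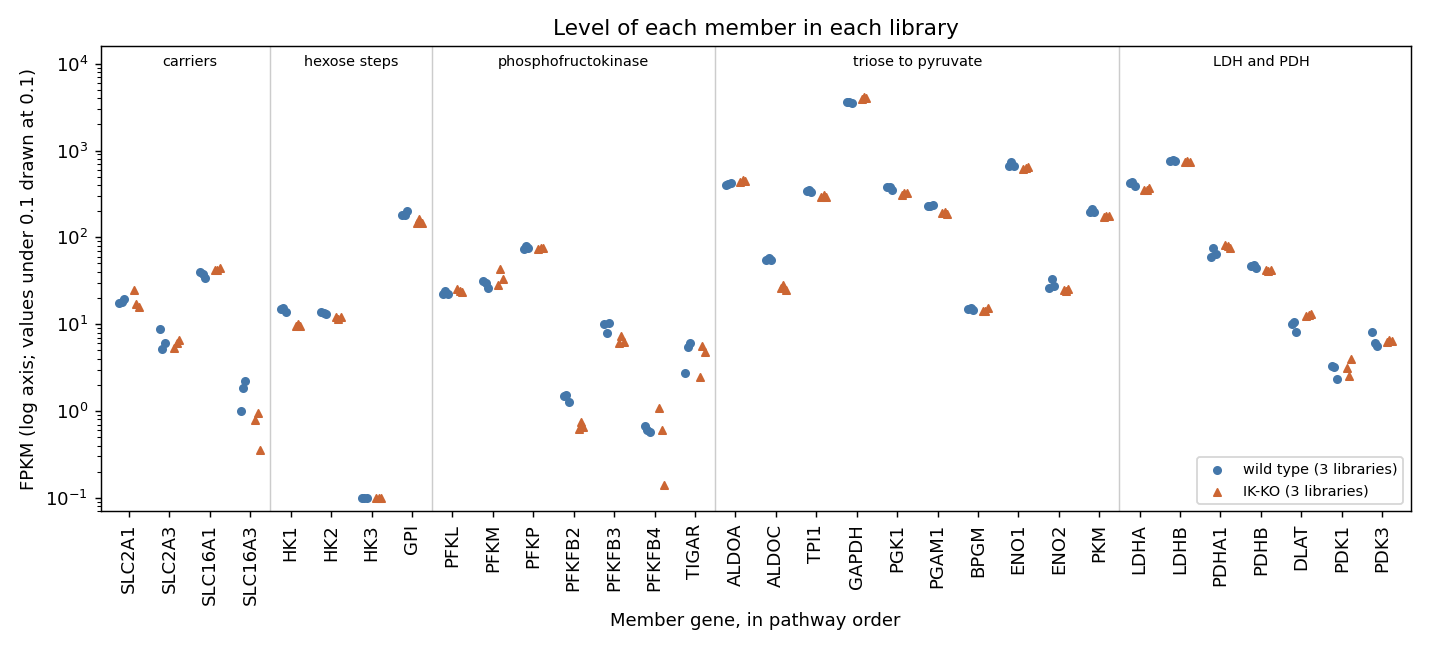
FPKM (log axis) of each of the 32 members in each of the 3 wild type (circles) and 3 IK-KO libraries (triangles), in pathway order, with values under 0.1 drawn at 0.1. GAPDH stands highest, ALDOC drops from about 56 to 26.4 FPKM, and HK3 is listed at 0 in every library.

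Upstream sequence is shown for 4 members that fell and for DLAT, which rose, so that the letters around their starts can be read beside their values. The sequences come from the RefSeq promoter table on GRCh38.p14 and are the parts of each window of 250 bases before a start that lie outside annotated exons. Those of ALDOC (chr17:28576949-28577145, minus strand) and LDHA (chr11:18394313-18394559, plus strand) end directly upstream of the gene. Those of PFKFB3 (chr10:6202694-6202865), PGK1 (chrX:78103998-78104247) and DLAT (chr11:112025158-112025407), all on the plus strand, lie before an internal start within the annotated gene. Capitals mark ACGTG, the core of the hypoxia response element, and GGGAA, the core letters bound by IKAROS, each on either strand (CACGT and TTCCC on the other strand). CACGTG, the E-box of MYC and its relatives, holds ACGTG on both strands. TPI1 and PKM also fell, but all 250 bases before their starts lay in annotated exons, so they are not shown. Those bases held no ACGTG, which every sequence shown holds. All runs are written 5′ to 3′ on the strand of the gene.
ALDOC: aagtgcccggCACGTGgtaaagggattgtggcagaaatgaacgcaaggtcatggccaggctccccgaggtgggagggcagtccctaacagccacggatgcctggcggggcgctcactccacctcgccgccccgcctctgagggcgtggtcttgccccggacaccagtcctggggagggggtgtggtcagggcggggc
LDHA: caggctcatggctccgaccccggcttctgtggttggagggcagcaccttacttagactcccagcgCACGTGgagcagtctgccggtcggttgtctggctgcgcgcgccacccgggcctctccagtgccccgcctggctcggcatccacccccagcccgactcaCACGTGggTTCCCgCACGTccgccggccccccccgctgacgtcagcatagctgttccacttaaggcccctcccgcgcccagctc
PFKFB3: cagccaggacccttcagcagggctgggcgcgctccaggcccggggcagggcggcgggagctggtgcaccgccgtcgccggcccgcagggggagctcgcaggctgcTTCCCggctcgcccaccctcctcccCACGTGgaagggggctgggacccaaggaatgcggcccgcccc
PGK1: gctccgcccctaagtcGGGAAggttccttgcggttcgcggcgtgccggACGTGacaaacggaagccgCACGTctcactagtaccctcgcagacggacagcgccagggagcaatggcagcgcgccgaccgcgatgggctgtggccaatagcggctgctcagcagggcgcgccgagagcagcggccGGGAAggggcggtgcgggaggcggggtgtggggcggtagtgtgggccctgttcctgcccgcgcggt
DLAT: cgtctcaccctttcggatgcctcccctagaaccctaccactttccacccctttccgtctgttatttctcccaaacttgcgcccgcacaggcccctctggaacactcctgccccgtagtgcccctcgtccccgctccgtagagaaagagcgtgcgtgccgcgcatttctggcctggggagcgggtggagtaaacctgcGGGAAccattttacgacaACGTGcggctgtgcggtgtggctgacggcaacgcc

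A start was matched in the table for 23 members, and the 250 bases before it were searched. ACGTG or its complement lay in 14 of the 23 windows, 60.9%, against 24.7% of 8458 tested genes with a matched window and 20.6% of all 17196. CACGTG lay in 4 of them (ALDOC, LDHA, PFKFB3 and PDHB), 17.4%, against 9.52% of tested genes and 7.62% of all. GGGAA lay in 15 of 23, 65.2%, against 61.8% and 60.3%. Of the 6 members that fell and had a window, 4 held ACGTG, 3 held CACGTG and 4 held GGGAA, while 9 of the 14 members that were not called held ACGTG. SLC2A3, SLC16A1, HK1, GPI, PFKM, PFKP, PFKFB2, GAPDH and PGAM1 had no matched window. These matches describe letters only and were not tested.

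The carriers were not called in either direction (0 of 4), where 19.9% of all tested genes were called. With 4 genes, 0 calls cannot be told apart from that share. SLC16A3 (MCT4), a lactate exporter of glycolytic cells, had the largest difference of the step at a low level: it was at 0.995, 1.83 and 2.2 FPKM in wild type and 0.787, 0.951 and 0.354 FPKM in those labelled IK-KO. All 3 wild type values lay above all 3 others, but by little, and the log2 change of -0.65 (95% confidence interval -1.22 to -0.07) had an adjusted p of 0.111. SLC16A1 (MCT1), the main lactate carrier here, was at 39.4, 38 and 34.3 FPKM in wild type and 41.7, 42.5 and 44.5 FPKM in the other group (log2 change 0.20, adjusted p = 0.082). The groups did not overlap for SLC16A1 either. SLC2A1 (GLUT1), the basal glucose carrier, averaged 18.5 ± 1.0 FPKM in wild type and 19.3 ± 4.84 FPKM in those labelled IK-KO, with a log2 change of 0.03 and an interval of -0.33 to 0.40. SLC2A3 (GLUT3), a high-affinity glucose carrier, averaged 6.72 ± 1.91 and 6.0 ± 0.68 FPKM, with an interval of -0.54 to 0.31. Both glucose carriers overlapped between groups, and their intervals leave room for changes in either direction.

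The steps from glucose to fructose-6-phosphate fell in 2 of 3 tested members, where 9.75% of all tested genes fell. HK1, the hexokinase found in most tissues and bound to mitochondria (ENSG00000156515.23, chr10:69269984-69401884), was at 15.1, 15.4 and 13.8 FPKM in wild type and 9.42, 10.1 and 9.43 FPKM in those labelled IK-KO. Every library of the first group lay above every library of the second, and HK1 fell by 0.56 on the log2 scale (SE 0.08, adjusted p = 0.00305). HK2, the inducible hexokinase, went from 13.5 ± 0.293 to 11.9 ± 0.394 FPKM without overlap and was not called (log2 change -0.16, adjusted p = 0.147). HK1 made up 52.3% ± 1.25 (SD, n = 3) of the hexokinase FPKM in wild type and 44.7% ± 1.84 (SD, n = 3) in the libraries labelled IK-KO. HK1 thus had the higher FPKM in the first group and HK2 in the second. The deposited bounds of HK1 and HK2 overlapped in each wild type library (13.8 to 16.3 and 12.5 to 15.1 FPKM in replicate 1) and in IK-KO replicate 2. GPI, which turns glucose-6-phosphate into fructose-6-phosphate (ENSG00000105220.17, chr19:34359480-34402413), was at 182, 183 and 202 FPKM in wild type and 146, 161 and 148 FPKM in the other group. It was lower in each of the 3 libraries labelled IK-KO and fell by 0.32 on the log2 scale (SE 0.06, adjusted p = 0.013).

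With their regulators, the phosphofructokinase subunits gave 1 call among 6 tested members (16.7%), against 19.9% of all tested genes. None of the subunits was called. PFKP, the platelet type and the most abundant of them, averaged 76.5 ± 3.53 FPKM in wild type and 75 ± 0.988 FPKM in those labelled IK-KO (log2 change -0.03, interval -0.15 to 0.09). PFKL, the liver type, averaged 22.8 ± 1.31 and 24.3 ± 0.869 FPKM (interval -0.07 to 0.25). PFKM, the muscle type, varied more, at 31.5, 29.6 and 25.9 FPKM against 28.5, 43.1 and 33.3 FPKM, and its log2 change of 0.25 had an adjusted p of 0.3. The largest PFKM value was that of IK-KO replicate 2, and the groups overlapped. Of the 3 tested enzymes that make or break fructose-2,6-bisphosphate, an activator of phosphofructokinase, 1 fell, where 9.75% of all tested genes fell. PFKFB3, the isozyme with the highest kinase activity (ENSG00000170525.21, chr10:6144934-6254644), was at 10.1, 7.96 and 10.2 FPKM in wild type and 6.14, 7.22 and 6.29 FPKM in those labelled IK-KO. It fell by 0.46 on the log2 scale (SE 0.12, adjusted p = 0.0349), with the groups apart, and missed the threshold after quantile normalisation (adjusted p = 0.051). Deposited bounds of PFKFB3 were wide in IK-KO replicate 1 (0 to 22 FPKM) and replicate 3 (0 to 15.9 FPKM). PFKFB2, an isozyme known from heart, was at 1.5, 1.54 and 1.27 FPKM in wild type and 0.618, 0.746 and 0.66 FPKM in those labelled IK-KO. These groups did not overlap, and the log2 change of -0.54 had an adjusted p of 0.0522. PFKFB2 was called lower in 7 of 17 alternative fits, at an adjusted p of 0.0382 with median-of-ratios size factors and 0.0446 without mitochondrial transcripts. TIGAR, which degrades fructose-2,6-bisphosphate, ranged from 2.46 to 6.15 FPKM over the 6 libraries with the groups overlapping (interval -0.87 to 0.62). PFKFB4 was at 0.673, 0.603 and 0.568 FPKM in wild type and 1.08, 0.60 and 0.142 FPKM in the other group, and was not tested.

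The steps from fructose-1,6-bisphosphate to pyruvate held 6 of the 11 called members, 5 lower and 1 higher of 10 tested. That is 60% called, against 19.9% of all tested genes and 28.5% of the most abundant ones. ALDOC, the aldolase isozyme best known from brain (ENSG00000109107.14, chr17:28573115-28576948), changed most of all members. It was at 55.1, 57.9 and 55 FPKM in wild type and 26, 28.5 and 24.6 FPKM in those labelled IK-KO, and the gap between the groups was many times the spread within them. ALDOC fell by 1.06 on the log2 scale (SE 0.07, adjusted p = 0.000141) and was the only called member past 2-fold, as were 3.19% of all tested genes. The median change of the 50 nearest tested genes on its chromosome was -0.25, and ALDOC stayed at -0.81 with that median removed. ALDOA, the main aldolase, was not called, at 414 ± 11.7 FPKM in wild type and 448 ± 15 FPKM in those labelled IK-KO (log2 change 0.11, adjusted p = 0.126). ALDOC thus supplied 11.9% ± 0.486 (SD, n = 3) of aldolase FPKM in wild type and 5.56% ± 0.329 (SD, n = 3) in the other group.

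TPI1, PGK1, PKM and LDHA, grouped here after their values were seen, fell to between 0.862 and 0.865 of their wild type means. The other called members that fell went to between 0.471 (ALDOC) and 0.814 (PGAM1) of theirs. TPI1, which interconverts the trioses (ENSG00000111669.15, chr12:6867119-6870948), was at 338, 352 and 337 FPKM in wild type and 291, 306 and 292 FPKM in those labelled IK-KO (log2 change -0.21, SE 0.04, adjusted p = 0.0146). PGK1, the first ATP-yielding enzyme of the pathway (ENSG00000102144.15, chrX:77910739-78129295), was at 377, 385 and 349 FPKM against 311, 326 and 324 FPKM (log2 change -0.21, adjusted p = 0.0283). PKM, pyruvate kinase (ENSG00000067225.18, chr15:72199029-72231822), was at 196, 210.4 and 196 FPKM against 169, 177 and 176 FPKM (log2 change -0.21, adjusted p = 0.0219). For each of these genes all wild type libraries lay above all libraries labelled IK-KO. As these genes were grouped by their like falls, nearly the same proportions in both groups follow from that choice. PGK1 stood at 1.08 ± 0.0414 (SD, n = 3) times TPI1 in wild type and 1.08 ± 0.0246 (SD, n = 3) times in the other group, and PKM at 0.587 ± 0.00924 and 0.587 ± 0.0131 times TPI1. These gene-level values do not separate the PKM1 and PKM2 splice forms. PGAM1, phosphoglycerate mutase (ENSG00000171314.9, chr10:97426191-97433444), was at 228, 233 and 238 FPKM in wild type and 192, 194 and 184 FPKM in those labelled IK-KO. Its groups were apart as well, and PGAM1 fell by 0.30 on the log2 scale (SE 0.04, adjusted p = 0.00411).

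GAPDH, the triose dehydrogenase and the most abundant member (ENSG00000111640.15, chr12:6534512-6538374), moved the other way. It was at 3599, 3656 and 3495 FPKM in wild type and 3903, 4082 and 4010.4 FPKM in those labelled IK-KO. GAPDH rose by 0.16 on the log2 scale (SE 0.04, adjusted p = 0.0317). It was called higher under each of the 3 other scalings but in only 11 of the 20 alternative fits. Among others, the call was lost without the filter on low values (adjusted p = 0.194), without the mean-variance trend (0.131), with the median change of neighbouring genes removed (0.121) and in 5 of the 6 fits that left out 1 library. Ratios within a library do not depend on scaling between libraries. GAPDH over TPI1 was 10.6, 10.4 and 10.4 in wild type and 13.4, 13.4 and 13.7 in the libraries labelled IK-KO. As TPI1 was called lower and GAPDH higher, groups far apart in that ratio follow from this choice of genes. Against ALDOA, which was not called, GAPDH stood at 8.66 ± 0.416 (SD, n = 3) and 8.94 ± 0.0999 (SD, n = 3), with overlap. As GAPDH alone made up 46.8% ± 0.425 (SD, n = 3) of the summed FPKM of the members in wild type and 51.6% ± 0.111 (SD, n = 3) in the other group, it offset the falls of the others in the sum. The members together held 1.07%, 1.07% and 1.07% of all FPKM in wild type and 1.05%, 1.08% and 1.07% in the libraries labelled IK-KO. Without GAPDH the sum was 0.565%, 0.570% and 0.574% against 0.509%, 0.520% and 0.518%, and the groups no longer overlapped. As GAPDH was the only member of at least 100 FPKM called higher, that gap follows in part from leaving it out.

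The other members of these steps were not called. ENO1, the main enolase, averaged 682 ± 40.7 FPKM in wild type and 630.0 ± 12.1 FPKM in those labelled IK-KO (log2 change -0.11, adjusted p = 0.176). ENO1 was called lower under 2 of the 3 other scalings, without mitochondrial transcripts (adjusted p = 0.0348) and after quantile normalisation (adjusted p = 0.0169). ENO2, the neuronal enolase, averaged 28.9 ± 3.9 and 24.9 ± 0.523 FPKM (log2 change -0.20, adjusted p = 0.2). Neither enolase overlapped between groups, and ENO2 took similar shares of enolase FPKM, 4.05% ± 0.287 and 3.81% ± 0.0867 (SD, n = 3 each). BPGM, which makes 2,3-bisphosphoglycerate, averaged 15 ± 0.412 and 14.5 ± 0.705 FPKM with overlap (interval -0.21 to 0.11).

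**Figure D2:**
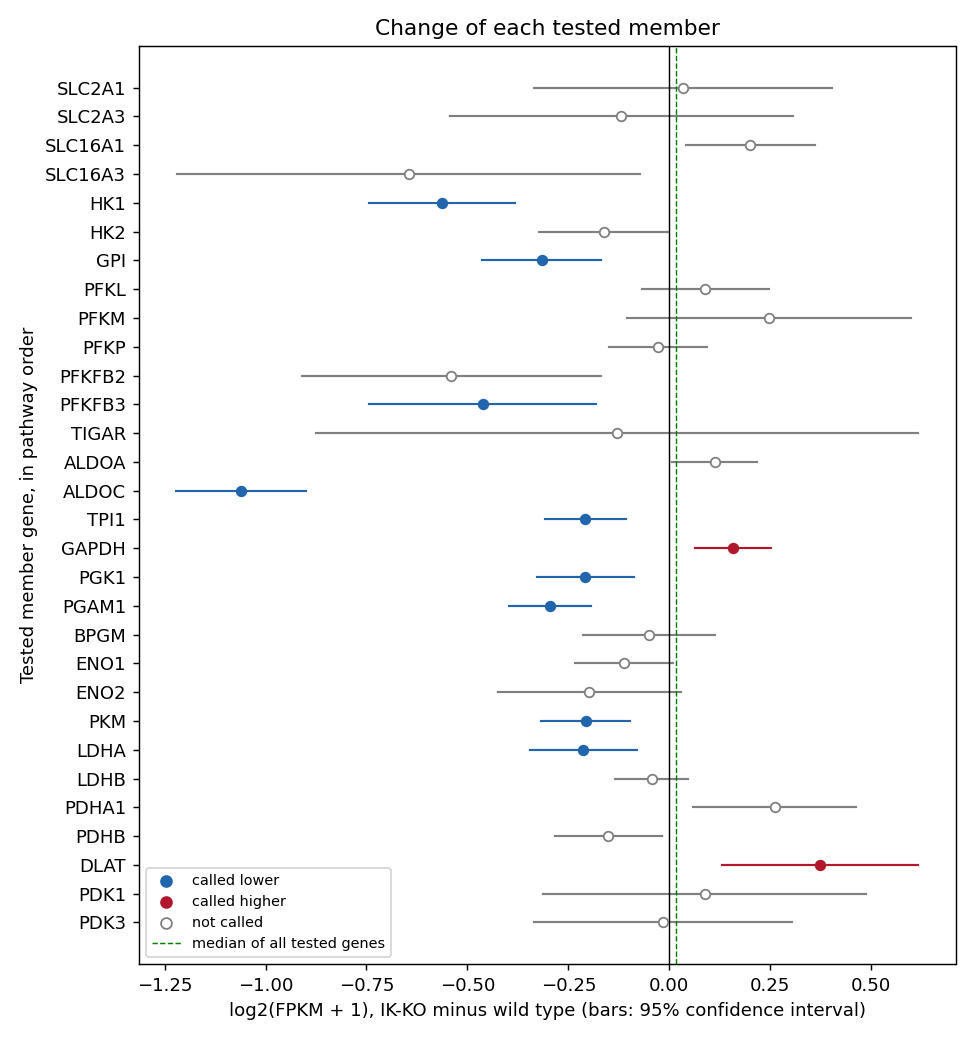
Change of each of the 30 tested members in log2(FPKM + 1), IK-KO minus wild type, with 95% confidence intervals from limma, in pathway order. Filled points mark the 11 called members (9 lower in blue, 2 higher in red), and the dashed line at 0.02 is the median of all tested genes.

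At the fate of pyruvate, 1 of 7 tested members fell and 1 rose, 28.6% called against 19.9% of all tested genes. LDHA, the lactate dehydrogenase subunit that favours lactate formation (ENSG00000134333.14, chr11:18394560-18408425), was at 419.8, 433 and 389 FPKM in wild type and 348, 348 and 375 FPKM in those labelled IK-KO. Between the groups of LDHA the gap was small, with the lowest wild type value close to the highest of the others, and the gene fell by 0.21 on the log2 scale (SE 0.06, adjusted p = 0.037). LDHB, the other subunit, was the more abundant one and averaged 764 ± 14.7 and 741 ± 14.3 FPKM with overlap (log2 change -0.04, interval -0.13 to 0.05). The LDHA share of lactate dehydrogenase FPKM was 35.1% ± 1.04 (SD, n = 3) in wild type and 32.5% ± 1.22 (SD, n = 3) in the libraries labelled IK-KO. DLAT, the acetyltransferase core of pyruvate dehydrogenase (ENSG00000150768.15, chr11:112024814-112064390), was at 10.1, 10.7 and 8.22 FPKM in wild type and 12.5, 12.7 and 12.9 FPKM in those labelled IK-KO. DLAT rose by 0.37 on the log2 scale (SE 0.10, adjusted p = 0.0436), with the groups apart. The other subunits among the members were not called. PDHA1, the subunit that the kinases phosphorylate, was at 66.2 ± 7.64 and 79.2 ± 3.28 FPKM (log2 change 0.26, adjusted p = 0.0751), and PDHB, its partner in the same enzyme, was at 46.4 ± 2.15 and 41.6 ± 0.881 FPKM (log2 change -0.15, adjusted p = 0.106). PDHB was called lower under each of the 3 other scalings (adjusted p 0.0295 to 0.0467). Of the kinases among the members, PDK1 averaged 2.96 ± 0.518 and 3.22 ± 0.69 FPKM (interval -0.31 to 0.49) and PDK3 6.6 ± 1.36 and 6.44 ± 0.209 FPKM (interval -0.34 to 0.30). Both kinases overlapped between groups at low levels.

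**Figure D3:**
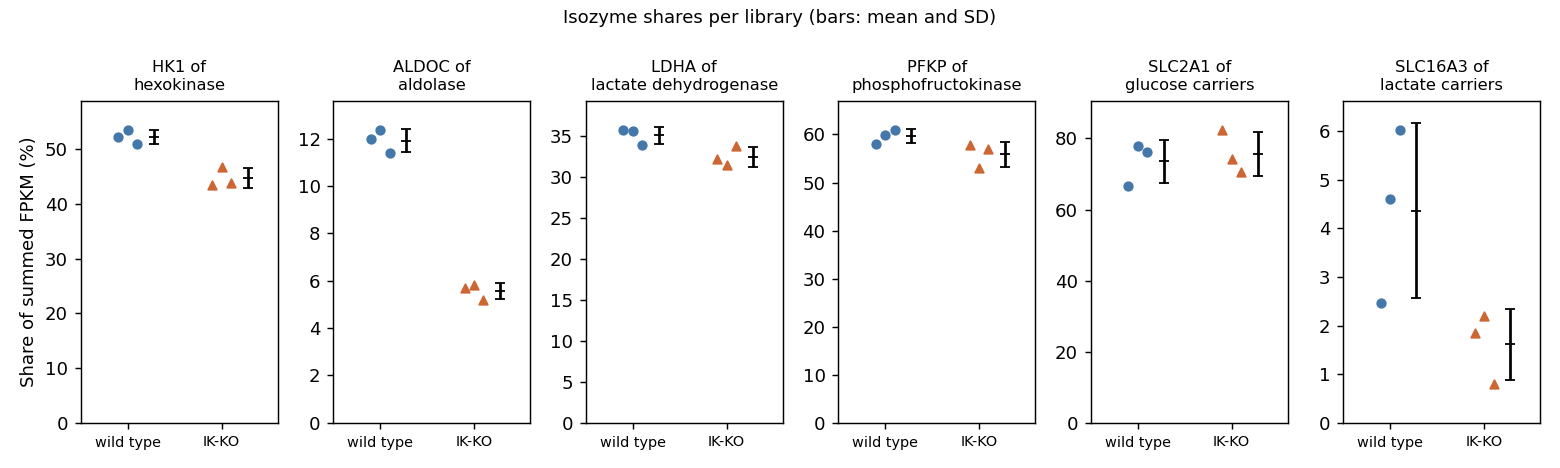
Share of 1 isozyme or carrier in the summed FPKM of its step (percent, axes from 0), per library, with mean and SD (n = 3) as bars, for wild type (circles) and IK-KO (triangles). The groups do not overlap for HK1 and ALDOC, and overlap for SLC2A1. They nearly touch for LDHA (lowest wild type 33.94%, highest IK-KO 33.87%). The same holds for PFKP (58.02% and 57.84%, means 59.6% and 55.9%) and SLC16A3 (2.46% and 2.19%, means 4.36% and 1.61%).

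The calls differed in how often they held when 1 library was left out. Leaving out 1 library also lowered the calls over all genes, from 2515 to between 1720 and 2042. ALDOC, HK1, GPI and PGAM1 were called in each of the 20 alternative fits. With 1 library left out, the number of members called ranged from 4 (without IK-KO replicate 1) to 9 (without wild type replicate 2), with 5 without IK-KO replicate 2, 5 without IK-KO replicate 3, 6 without wild type replicate 1 and 8 without wild type replicate 3. TPI1 lost its call without IK-KO replicate 1 or 3, at an adjusted p of 0.0523 to 0.0575. PKM lost it without wild type replicate 2 or any 1 library labelled IK-KO (0.0548 to 0.0792). LDHA lost it without wild type replicate 1 or 2 or IK-KO replicate 1 or 2 (adjusted p from 0.103 to 0.115). For PGK1 this held without every library but wild type replicate 3 (0.0646 to 0.0961). GAPDH, DLAT and PFKFB3 each lost the call without every library but wild type replicate 2, with adjusted p-values of 0.0624 to 0.105 for GAPDH, 0.0628 to 0.114 for DLAT and 0.0516 to 0.105 for PFKFB3. PDHA1 gained a call without wild type replicate 2 (adjusted p = 0.0191). With 1 library left out, log2 changes ran from -0.23 to -0.19 (TPI1), -0.23 to -0.17 (PKM) and -0.26 to -0.18 (LDHA). They ran from -0.25 to -0.18 (PGK1), -0.57 to -0.41 (PFKFB3), 0.14 to 0.18 (GAPDH) and 0.27 to 0.44 (DLAT). The directions of all 11 held throughout.

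**Figure D4:**
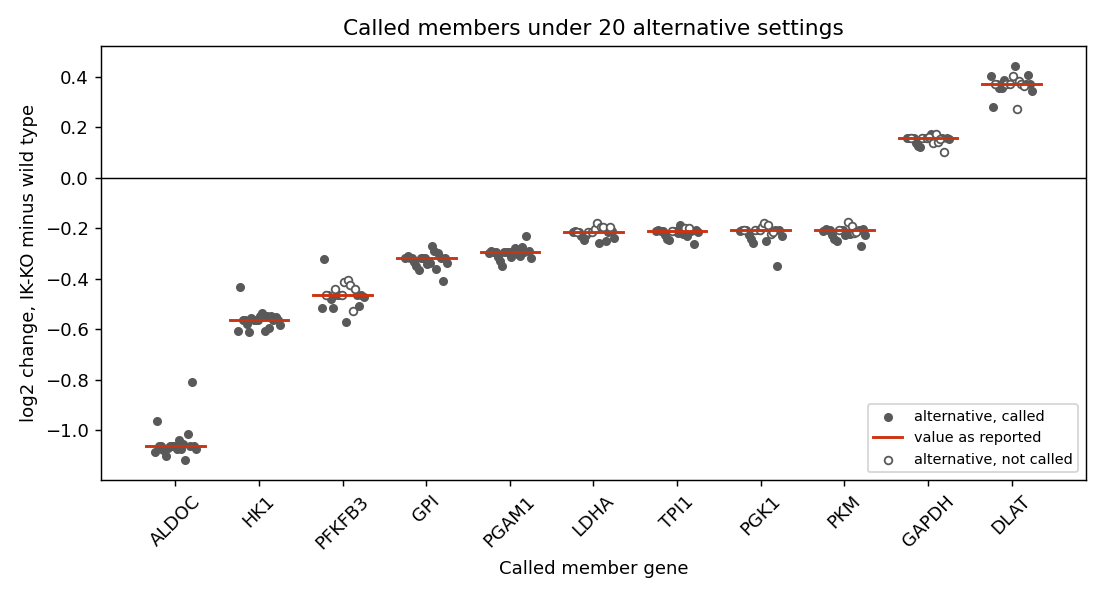
Change of the 11 called members in log2, IK-KO minus wild type, as reported (red lines) and under 20 alternative settings (filled where called, open where not). All values keep their side of 0, and ALDOC, HK1, GPI and PGAM1 are filled throughout.

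Genes around the pathway were counted from lists of the same subject, beside the 19.9% of all tested genes that were called, 10.1% higher and 9.75% lower. Among other glycolysis and gluconeogenesis genes, 6 of 18 were tested, 1 rose and 1 fell (33.3% called), with a median log2 change of 0.04. PCK2, the mitochondrial phosphoenolpyruvate carboxykinase, had the largest change there, at 7.88, 5.49 and 6.47 FPKM in wild type and 17.4, 17.8 and 13.6 FPKM in those labelled IK-KO (log2 change 1.19, adjusted p = 0.00218). Among other glucose and monocarboxylate carriers, 6 of 16 were tested, 1 rose and 3 fell (66.7% called, median -0.33). SLC2A6 (GLUT6) led them, at 12.3, 9.91 and 12 FPKM against 2.42, 6.01 and 3.04 FPKM (log2 change -1.43, adjusted p = 0.00897). Named after their values were seen, BSG and EMB, the partner proteins that bring monocarboxylate carriers to the membrane, went opposite ways: BSG was at 127, 126 and 124 FPKM in wild type and 157, 154 and 147 FPKM in those labelled IK-KO, and EMB at 35, 32.1 and 29 FPKM and 20.9, 19.9 and 20.8 FPKM (adjusted p = 0.00588 for BSG and 0.00245 for EMB). The ratio of BSG to EMB was 3.93 ± 0.318 (SD, n = 3) in wild type and 7.43 ± 0.351 (SD, n = 3) in the other group, with SLC16A1 not called beside them. As both genes were named after their opposite changes were seen, the gap in this ratio follows from that choice.

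Other pyruvate and lactate enzymes gave 0 rises and 1 fall among 9 tested of 15 (11.1% called against 19.9% of all tested genes, median -0.09), and the fall was that of PDK2, a kinase of pyruvate dehydrogenase, from 19.7 ± 1.36 to 14.9 ± 0.56 FPKM (log2 change -0.38, adjusted p = 0.013). In the pentose phosphate pathway, 7 of 8 genes were tested, 1 rose and 2 fell (42.9% called, median 0.05), led by RPIA, ribose-5-phosphate isomerase, from 45.7 ± 3.14 to 36.3 ± 1.35 FPKM (log2 change -0.32, adjusted p = 0.0155). The call of RPIA was lost without IK-KO replicate 1 or 3 (adjusted p 0.0516 to 0.055), and the 3 calls of the list became 1 without IK-KO replicate 3. The citric acid cycle had 16 tested genes, of which 0 rose and 4 fell (25% called, median -0.15), with SUCLG2, a succinyl-CoA ligase subunit, at 18.8 ± 0.26 and 13.8 ± 0.584 FPKM (log2 change -0.42, adjusted p = 0.00522). The 4 calls of the cycle became 2 without wild type replicate 1 or 2, 7 under each of the 3 other scalings and 8 with the GC trend removed.

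Most of the listed regulators of hypoxia and glucose sensing were not called, and MYC was not in that list. Of 13 genes of hypoxia and glucose sensing, 11 were tested, 1 rose and 0 fell (9.09% called against 19.9% of all tested genes, median -0.07). HIF1A, the oxygen-regulated subunit of HIF-1, was at 27.6, 25.6 and 22.3 FPKM in wild type and 20.5, 21.1 and 21.8 FPKM in those labelled IK-KO (log2 change -0.24, adjusted p = 0.102), and it was called lower without wild type replicate 3 (adjusted p = 0.0296), with median-of-ratios size factors (0.0435) and with the GC trend removed (0.0255). TXNIP, a glucose-induced brake on glucose uptake, was the gene that rose, at 26.7, 27.1 and 26.1 FPKM against 32.2, 32.3 and 31.3 FPKM (log2 change 0.25, adjusted p = 0.0171). Its call was lost without IK-KO replicate 1 or 2 and without wild type replicate 1 (adjusted p 0.055 to 0.06). Hypoxia-responsive genes outside glycolysis moved in both directions, with 3 higher and 4 lower of 14 tested (50% called, median -0.15, 19 in the list). Those 7 calls became 3 without wild type replicate 3, 3 without the filter on low values, and 4 without wild type replicate 2 or any 1 library labelled IK-KO. DDIT4, a stress-induced inhibitor of mTORC1 signalling, fell most, from 22.3 ± 0.56 to 8.28 ± 0.93 FPKM (log2 change -1.33, adjusted p = 0.000155). VEGFA, the angiogenic growth factor, named after its value was seen, rose from 3.27, 3.52 and 3.43 FPKM to 10.3, 7.92 and 11.8 FPKM (log2 change 1.31, adjusted p = 0.0012).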

How the data were processed

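Polyadenylated RNA of MOLT-4 was measured in 6 libraries, 3 wild type and 3 labelled IK-KO, grouped by the labels alone. The authors deposited 1 gene-level table per library of FPKM values, scaled for transcript length and depth, with confidence bounds and an estimation status, in the layout of Cufflinks. The submitters' processing notes name STAR 2.6.1c, Cufflinks 2.2.1, HOMER 4.10 and hg38 without giving their roles, and the annotation is not given in the sources used here. All 49727 identifiers compared lay at their GENCODE release 44 position on GRCh38. The strand setting is not given in the sources used here either, so genes overlapping another gene are uncertain. No counts were used. From the deposited bounds the relative depth of the libraries ranged from 0.900 to 1.10, and mitochondrial transcripts took 13.0% to 14.4% of FPKM.

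Rows of 1 identifier were summed (110 identifiers), and 29 genes without an OK status in every library were left out. Genes with a mean of at least 1 FPKM entered limma 3.58.1 (trend, two-sided, R 4.3.3) as log2(FPKM + 1), with Benjamini-Hochberg adjustment over 12652 genes and a threshold of 0.05. A fold change on this scale understates that of low genes. An exact permutation test of 3 against 3 libraries cannot go below p = 0.1 and was not used. The code was tested on simulated data. The members and lists were chosen with earlier results of these data known. All members were described. From each other list the called gene that changed most was named, with HIF1A and TXNIP, and other genes are marked as named after their values were seen. Isozyme shares, sums and ratios were taken per library from FPKM without a test. Promoter windows came from RefSeq on GRCh38.p14, 1 per gene, where the start lay within 100 bases of the canonical GENCODE start.

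Alternatives covered the pseudocount, the filter, scaling, the variance model, a replicate block, each library left out, estimation status, neighbouring genes, pseudogene copies and GC content.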

Additional observations from a re-analysis of the deposited data

How the results depend on the processing

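The 11 members called became 7 without the filter on low values, 6 without the mean-variance trend, 4 to 9 with 1 library left out, and 1 where an unadjusted p under 0.05 and a 2-fold change were asked, by which 447 of all tested genes were called against 2515 as reported. With the replicate number of the titles as a block, 6 members were called (ALDOC, HK1, GPI, PGAM1, TPI1 and PKM). All settings not named so far gave 10 to 14 members. Same-numbered libraries had correlations of 0.067, 0.025 and 0.0055 in their deviations from the group means. These low values gave no sign of pairing by number, but a shared culture or batch was not tested. Removing the median change of neighbouring genes ended the calls of GAPDH and LDHA. The sign turned only in members that were not called. With 1 library left out, SLC2A1 ranged from -0.15 to 0.16, SLC2A3 from -0.26 to 0.071, PFKP from -0.051 to 0.0096, TIGAR from -0.41 to 0.15, PDK1 from -0.032 to 0.20 and PDK3 from -0.11 to 0.12. With neighbours removed, SLC2A1 went to -0.017, LDHB to 0.0049 and PDK3 to 0.010, and PDK3 went to 0.011 after quantile normalisation. The causes were not tested. Of 13 members with pseudogene rows in the tables, 12 had copies summing to at most 1.40% of the parent, and SLC2A3 had up to 32.3%. At low levels the deposited bounds limit what can be read: the upper bound lay up to 196% of the value above it for SLC16A3 and 258% for PFKFB3.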
